A study of Mus musculus with 10 samples.

Results

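The genes described here encode the transcription factor NRF2 with its regulators, and the enzymes and transporters that supply glutathione, reduced thioredoxin and NADPH, handle haem and iron, and conjugate or export electrophiles. The 35 genes were listed by name for their known roles, with earlier results of these data known. Their transcripts were summed per gene, from 32903 genes with a row in the table. Shares of the 35 that changed are set beside those of all genes as a description only. All 35 were among the 14597 genes that passed the filter on low counts and were tested. RNA sequencing was done on preadipocytes, which can become fat cells, grown from inguinal subcutaneous adipose tissue of male C57BL/6 wild types. There were 10 libraries: replicates 1 to 5 of cells exposed to DMSO alone, the vehicle, and replicates 1 to 5 of cells exposed to 2.5 µM bisphenol S (BPS), a relative of bisphenol A, in DMSO. The study's title links fat cell formation under bisphenols to reactive oxygen species. The labels give neither the exposure time nor the origin of the replicates (animals or dishes), so p-values measure the spread between these libraries only, which may be technical.

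NRF2, encoded by Nfe2l2, is bound by KEAP1 and degraded in unstressed cells. When oxidants or electrophiles modify KEAP1, NRF2 accumulates, pairs with small MAF proteins and activates genes that carry an antioxidant response element, while BACH1 represses many of the same genes. Its targets make and recycle glutathione, the main soluble thiol of the cell, and provide the NADPH that reduces oxidised glutathione and thioredoxin.

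The RefSeq promoter table (build GRCm38.p6, windows from 250 bases before to 50 bases after each annotated start) held 30 of the 35 genes. The core of the antioxidant response element, TGACNNNGC, searched on both strands, occurred in at least 1 window of 11 of these 30 genes (36.7%), and in 14.0% of all 27025 genes of the table. Of the 6 genes in the table that changed under BPS, described below, 2 held a match, Nfe2l2 and Gclm, and Slc7a11, Fth1, Gstp1 and Gsto1 held none in this window. Stretches around the match are shown for these 2, which fell, and, to set beside them, for G6pdx and Gstm5, which did not pass the test. The choice of these 4 was made with the values known. Capitals mark the match, as it reads on the strand of the gene, and the match of Gclm and G6pdx lies on the opposite strand.
Nfe2l2 (chr2:75704847-75704913, minus strand): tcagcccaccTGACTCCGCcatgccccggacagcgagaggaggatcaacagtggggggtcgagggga
Gclm (chr3:122245375-122245479, plus strand): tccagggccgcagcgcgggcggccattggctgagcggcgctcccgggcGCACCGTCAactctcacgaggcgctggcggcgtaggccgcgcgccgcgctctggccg
G6pdx (chrX:74428881-74428985, minus strand): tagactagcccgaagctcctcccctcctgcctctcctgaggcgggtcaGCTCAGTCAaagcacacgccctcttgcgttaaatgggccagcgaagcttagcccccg
Gstm5 (chr3:107895764-107895853, plus strand): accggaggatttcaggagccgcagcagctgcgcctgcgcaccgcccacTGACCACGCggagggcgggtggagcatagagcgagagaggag
Relative to the annotated start, the first base of the match is at -240 in Nfe2l2, -134 in Gclm, -57 in G6pdx and -42 in Gstm5. In Me1 the match, TGACTCAGC, also held the AP-1 motif TGANTCA. A match in this window is a description of the sequence and says nothing of binding in these cells.

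Under BPS 5 of the 35 genes fell, 2 rose and 28 did not pass the test. By edgeR's quasi-likelihood test, at an adjusted p under 0.05 with Benjamini-Hochberg adjustment over all tested genes, 4.88% of all genes were called, 3.06% higher and 1.82% lower. The falls were Gsr, Gclm, Nfe2l2, Fth1 and Gstp1, and the rises Gsto1 and Slc7a11. Sizes are given as the log2 difference, the log2 fold change of BPS over DMSO. No called change of the 7 was larger than 17.9%. The median log2 difference of the 35 genes was -0.016, with 23 of them below 0, and that of all tested genes was 0.0004, with 49.8% below 0. In 8 of the 35 genes the 5 BPS libraries did not overlap the 5 DMSO libraries, 6 lower and 2 higher, and 6.9% of all tested genes did not overlap. Scaling by library size alone turned the split of calls over all genes from 447 higher and 265 lower to 334 higher and 394 lower, and left the 35 genes at 2 higher and 5 lower.

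**Figure D1:**
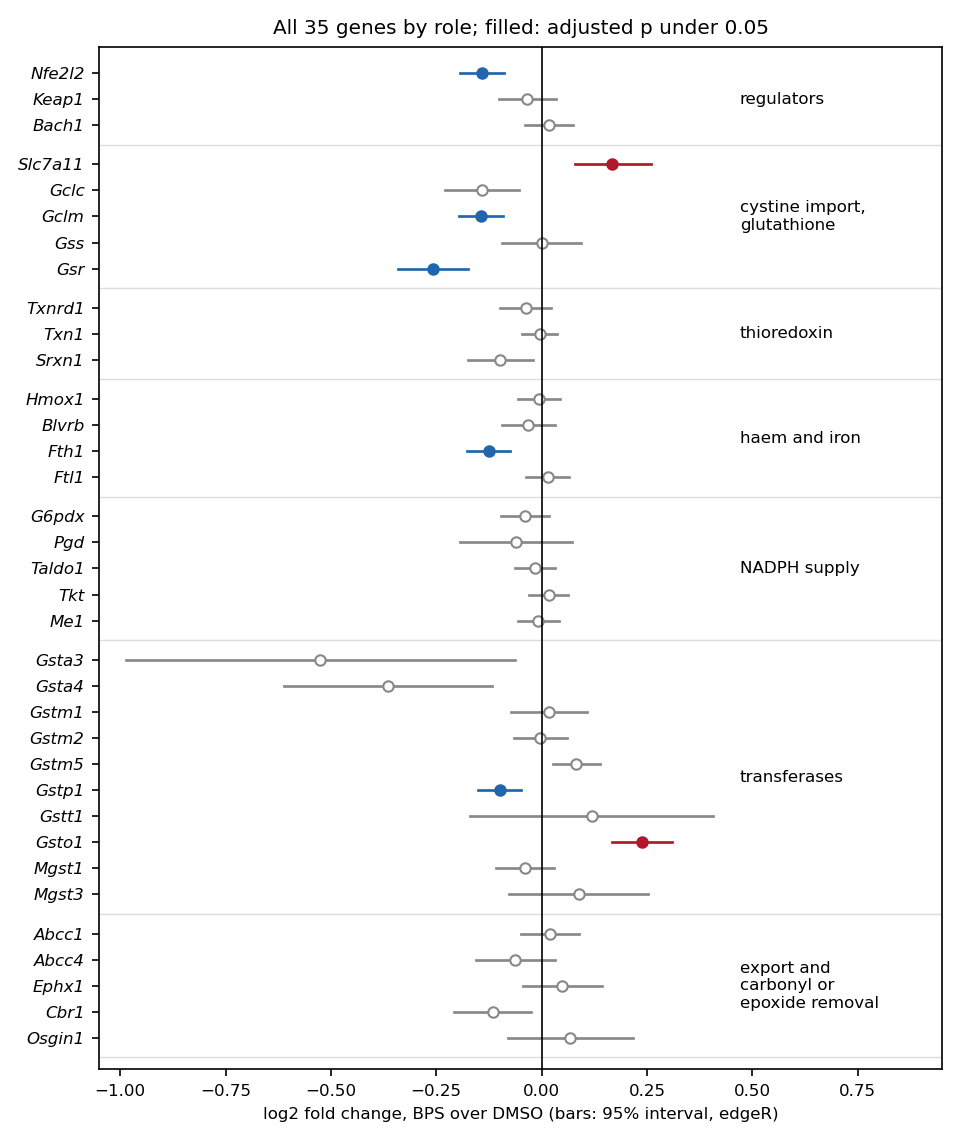
Log2 fold change of BPS over DMSO for each of the 35 genes (x axis, points) with its 95% interval from edgeR (bars), grouped by role on the y axis. Filled points are the 7 genes with an adjusted p under 0.05, blue for the 5 lower and red for the 2 higher, and the intervals of the 5 NADPH supply genes all span 0.

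Total estimated counts were 37920689 to 42717227 per library. Among 10 listed markers of preadipocytes, Pdgfra had 30509 to 35743 counts per library. All 10 were tested, from Dpp4 and Pi16, at 67 to 111 counts, to Col1a1, at 756249 to 898094. Of these, 1 was called by edgeR, Cd34, which was higher in BPS (53.3 to 57.7 CPM) than in DMSO (42.5 to 46.5 CPM), and DESeq2 called 2. Of the markers of other cells, Csf1r (macrophages), Lep (adipocytes), Msln and Upk3b (mesothelium) had 0 counts in every library and Adipoq (adipocytes) 0 to 3, but other markers of the same lists were detected. Lyz2 and Cd68 (macrophages) had 240 to 467 and 88 to 143 counts, Pnpla2 and Lipe (adipocytes) 365 to 460 and 113 to 182, Tek and Cdh5 (endothelium) 359 to 500 and 106 to 207, and Krt19 (mesothelium) 312 to 437. Of the lists for other cells, the mural list had 2 of 6 markers higher, its summed level being 1040 to 1113 CPM in DMSO and 1338 to 1445 CPM in BPS, almost all of it Acta2. The mesothelial list had 1 of 2 tested markers higher (Krt19). Its summed level, almost all of it Krt19, was 9.03 to 11.0 CPM in DMSO and 11.0 to 12.7 CPM in BPS. The other marker, Wt1, was not called, with a log2 difference of -0.588. Wt1 had 0.726 to 1.05 CPM in DMSO and 0.351 to 0.804 CPM in BPS. Of these 2 markers, 2 had an unadjusted p under 0.05. Of the tested macrophage (5), endothelial (6) and adipocyte (2) markers, 0 were called by edgeR, DESeq2 or limma-voom. In these lists 0, 0 and 1 had an unadjusted p under 0.05. The summed levels in DMSO and BPS were 9.89 to 16.1 and 10.6 to 19.1 CPM for the macrophage list, 17.3 to 22.8 and 16.8 to 22.4 CPM for the endothelial list, and 14.1 to 15.45 and 14.6 to 16.6 CPM for the adipocyte list. The part of these markers in the results below was not tested. In bulk RNA, fewer cells of a type and less RNA per cell cannot be told apart. The labels number the libraries with the DMSO samples first, so a batch that followed this order and the treatment cannot be told apart.

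Among the 3 regulators, the gene of NRF2 itself fell and the genes of its inhibitor and its repressor did not pass the test. Nfe2l2 had 200.3, 196.2, 197.7, 203.2 and 200.2 CPM (counts scaled to a common library size by TMM) in DMSO replicates 1 to 5. In BPS replicates 1 to 5 it had 190.3, 179.1, 175.7, 185.0 and 174.2 CPM. All BPS libraries lay below all DMSO libraries, and BPS replicate 1 came nearest to them. The means were 199.5 ± 2.71 and 180.9 ± 6.73 CPM (n = 5 each, SD), a log2 difference of -0.14 (SE 0.02, edgeR adjusted p = 0.00714). Keap1, the adaptor that delivers NRF2 for degradation, had 86.1 ± 3.44 CPM under DMSO and 84.1 ± 2.67 CPM under BPS. Bach1, the repressor that competes for the same sites, had 63.2 ± 1.36 and 64.0 ± 2.06 CPM. Their adjusted p were 0.615 and 0.783 by edgeR, and the 95% intervals of the log2 difference ran from -0.10 to 0.033 for Keap1 and from -0.039 to 0.074 for Bach1.

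Around these regulators, 12 genes for partners of NRF2 and for its degradation were all tested. Of the 12, 1 rose and 0 fell (8.33% called, against 4.88% of all tested genes). Their median log2 difference was 0.042, with 10 of 12 above 0. The gene that rose was Nfe2l1, a related factor of the same family, from 334.6 ± 4.34 to 348.3 ± 4.82 CPM (n = 5 each, SD). Its log2 difference was 0.058 (SE 0.015), at an edgeR adjusted p of 0.0485, and its call was lost in 17 of 22 alternatives, among them each fit lacking any library other than BPS replicate 1 (edgeR adjusted p up to 0.102). Over the 22, adjusted p ran from 0.00635 (DESeq2) to 0.111 (edgeR with no filter).

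Glutathione supply held the largest fall of the 35 genes that passed the test. Of its 5 genes, Gclm and Gsr fell, Slc7a11 rose, and Gclc and Gss did not pass the test. Glutathione is made from glutamate, cysteine and glycine in a pair of steps, the first catalysed by GCLC with its modifier subunit GCLM and the second by GSS, and GSR returns its oxidised form to the reduced form with NADPH. Summed over the 5 genes, the level was 160.0 to 164.5 CPM in DMSO libraries and 146.9 to 156.9 CPM in BPS libraries.

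Gsr, glutathione reductase, had 17.1, 18.4, 16.9, 17.5 and 17.9 CPM in DMSO replicates 1 to 5 and 14.6, 15.1, 14.4, 15.4 and 14.0 CPM in BPS replicates 1 to 5. The lowest DMSO library was above the highest BPS library. The log2 difference was -0.26 (SE 0.04), a difference of -16.3%, at an edgeR adjusted p of 0.00299. The call held in every one of 22 alternatives to the processing that give a fold change per gene (adjusted p up to 0.0211). Where transcripts were tested without summing, its single transcript did not pass (edgeR adjusted p = 0.0595).

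Gclm, the modifier subunit of glutamate-cysteine ligase, had 52.9, 52.9, 55.5, 55.6 and 56.9 CPM in DMSO and 48.9, 49.5, 49.8, 50.1 and 49.4 CPM in BPS. The groups did not overlap, and the BPS libraries spread less (SD 0.449 CPM) than the DMSO libraries (SD 1.77 CPM). The log2 difference was -0.14 (SE 0.02, edgeR adjusted p = 0.00675).

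Gclc, the catalytic subunit of the same enzyme, had nearly the same log2 difference, -0.14 (SE 0.04), and missed the threshold (edgeR adjusted p = 0.0717). It had 43.4, 44.3, 43.8, 44.9 and 44.0 CPM in DMSO and 43.03, 39.87, 39.79, 41.24 and 35.76 CPM in BPS. The groups did not overlap, but BPS replicate 1 was just below the lowest DMSO library and BPS replicate 5 was the lowest, and the SD was 0.548 CPM under DMSO and 2.68 CPM under BPS. The gene passed in 2 of 22 alternatives, the DESeq2 Wald test (adjusted p = 0.0308) and edgeR without BPS replicate 1, its BPS library nearest to DMSO (adjusted p = 0.0269). In the other 20 it did not pass, with an edgeR adjusted p of up to 0.656, reached with curated transcripts only.

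Gss, glutathione synthetase, had 21.8 ± 0.829 CPM under DMSO and 21.8 ± 1.21 CPM under BPS (n = 5 each, SD). The 95% interval of its log2 difference was -0.095 to 0.094.

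Slc7a11 encodes the light chain of the exchanger that brings cystine into the cell for glutathione, and is known as a target of ATF4 as well as of NRF2. It had 25.3, 25.4, 24.4, 23.0 and 23.4 CPM in DMSO and 25.1, 28.4, 27.1, 28.1 and 27.9 CPM in BPS. All BPS libraries but replicate 1 were above all DMSO libraries. The log2 difference was 0.17 (SE 0.04, edgeR adjusted p = 0.0411), and the call was lost in 13 of 22 alternatives to the processing. Among these were the 9 edgeR fits that left out any library other than BPS replicate 1 (adjusted p up to 0.0952), no filter on low counts (0.0525), exact version matching (0.796) and curated transcripts only. Transcripts in RefSeq's curated set held 72.9% of its counts, and with those alone the log2 difference was 0.12 (edgeR adjusted p = 0.823).

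**Figure D2:**
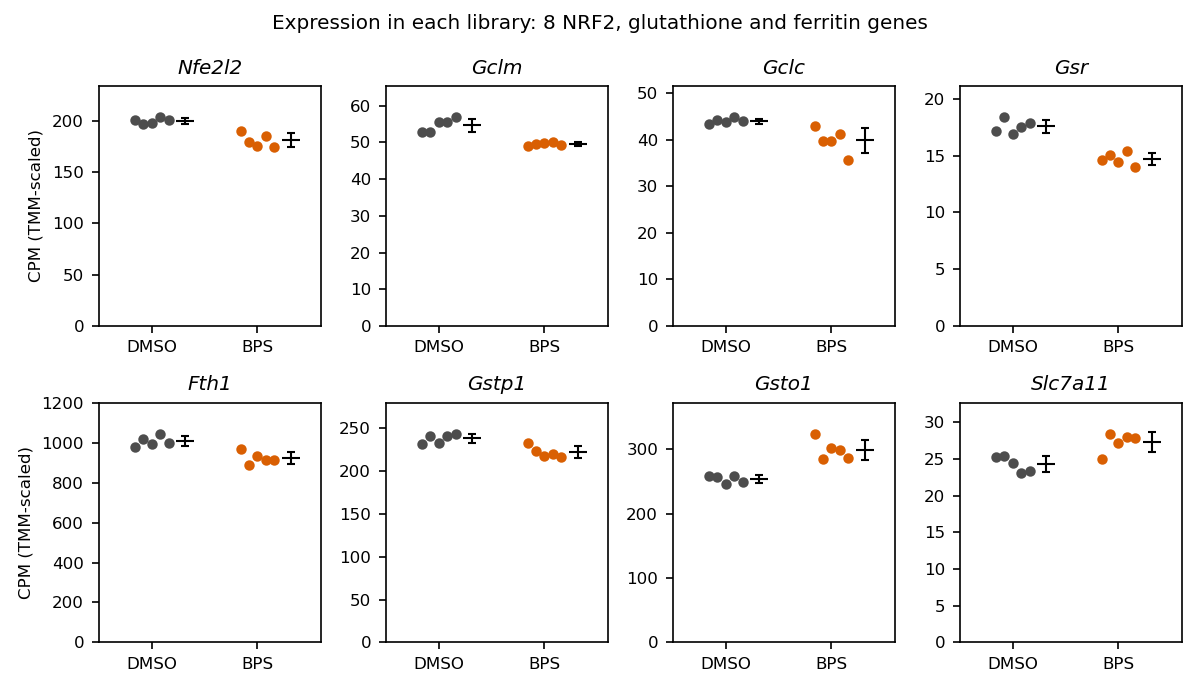
TMM-scaled CPM (y axes, from 0) of 8 genes in each of the 5 DMSO (grey) and 5 BPS (orange) libraries, drawn from replicate 1 at the left to replicate 5 at the right, with the mean and SD beside them. Groups do not overlap for Nfe2l2, Gclm, Gclc, Gsr, Fth1 and Gsto1, and BPS replicate 1 lies within the DMSO range for Gstp1 and Slc7a11.

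Genes for breaking down or using glutathione were listed separately. Of 16, 15 were tested, and 1 rose and 0 fell (6.67% called, against 4.88% of all tested genes). The median log2 difference of the 15 was 0.011. Chac1, which cleaves glutathione inside the cell and is a known ATF4 target, had 13.7, 14.3, 15.4, 14.7 and 14.0 CPM in DMSO and 17.4, 19.04, 17.2, 16.8 and 16.2 CPM in BPS. The groups did not overlap, and the log2 difference was 0.26 (0.265, SE 0.05, edgeR adjusted p = 0.0111). Slc3a2, the heavy chain that pairs with SLC7A11, had a log2 difference of 0.098 (SE 0.027) and did not pass the test (edgeR adjusted p = 0.0583). It is named after its values were seen, and it passed in 4 of 22 alternatives. Among them was the fit without BPS replicate 1, its BPS library nearest to DMSO (log2 difference 0.12, edgeR adjusted p = 0.0111).

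In the thioredoxin group 0 of 3 genes were called by edgeR, 1 had an unadjusted p under 0.05, and DESeq2 and limma-voom called 0. Txnrd1, the reductase that keeps thioredoxin reduced with NADPH, had 257.2 ± 10.4 CPM under DMSO and 250.5 ± 6.39 CPM under BPS (n = 5 each, SD). The 95% interval of its log2 difference was -0.099 to 0.023. Txn1, thioredoxin, had 293.0 ± 3.60 and 292.0 ± 7.79 CPM. Srxn1, which repairs overoxidised peroxiredoxins, was the gene with the low unadjusted p, with a log2 difference of -0.098 (SE 0.035, edgeR adjusted p = 0.146). Its BPS libraries had 93.5, 86.7, 83.7, 86.8 and 82.3 CPM and its DMSO libraries 89.6 to 97.0 CPM, so that BPS replicate 1 alone lay within the DMSO range. Without that library, its BPS library nearest to DMSO, Srxn1 passed the test (log2 difference -0.13, edgeR adjusted p = 0.029). This was 1 of 22 alternatives, and Srxn1 passed in none of the others.

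Of the 4 haem and iron genes, the heavy chain of ferritin fell and its light chain did not pass the test. Ferritin stores iron in a shell built of both chains, of which the heavy chain oxidises the iron. Fth1 had 980.0, 1021, 994.1, 1045 and 1000 CPM in DMSO and 967.4, 891.0, 932.1, 915.6 and 911.9 CPM in BPS. The groups did not overlap, and BPS replicate 1 was again nearest to DMSO. The log2 difference was -0.13 (SE 0.02, edgeR adjusted p = 0.0112). Ftl1 had 1424 ± 42.0 CPM under DMSO and 1438 ± 40.6 CPM under BPS, with a 95% interval of the log2 difference from -0.038 to 0.066. Its sequence is 99.56% identical over 94.0% of its length to the pseudogene Ftl1-ps1, so reads of both cannot be told apart with certainty. Fth1 itself is 90.46% identical over 56.4% of its length to the predicted gene Gm6977. Whether Fth1 changed more than Ftl1 was not tested.

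Hmox1, haem oxygenase 1, which opens the haem ring and is a classical target of NRF2 and BACH1, had 86.1, 85.5, 81.5, 85.6 and 85.3 CPM in DMSO and 86.9, 81.2, 85.0, 85.5 and 83.4 CPM in BPS. The groups overlapped, and the 95% interval of the log2 difference was -0.056 to 0.044. Blvrb, which reduces biliverdin and flavins, had a log2 difference of -0.032 (SE 0.029). Of 16 further iron and haem genes, 15 were tested and 0 were called by edgeR, while DESeq2 called 1 and limma-voom 0. Of the 15, 2 had an unadjusted p under 0.05, against 18.8% of all tested genes. Their median log2 difference was -0.025, with 12 of 15 below 0.

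The 5 genes of NADPH supply did not pass the test. No gene of this group was called by edgeR, DESeq2 or limma-voom, and 0 of 5 had an unadjusted p under 0.05. G6pdx, the first and rate-limiting enzyme of the oxidative pentose phosphate pathway, had 92.4, 90.8, 90.7, 94.3 and 98.4 CPM in DMSO and 93.7, 90.5, 91.3, 91.1 and 87.2 CPM in BPS. The groups overlapped, and the 95% interval of the log2 difference was -0.097 to 0.018. Pgd, the other NADPH-forming enzyme of that pathway, had the widest spread, 68.0 to 84.7 CPM in DMSO and 68.6 to 79.5 CPM in BPS (95% interval -0.19 to 0.073). The intervals of Taldo1 (-0.064 to 0.032) and Tkt (-0.029 to 0.063), the enzymes of the non-oxidative branch, and of Me1, cytosolic malic enzyme (-0.056 to 0.041), were narrower. Near copies exist for G6pdx (G6pd2) and Taldo1 (Gm17823), so their counts depend in part on how shared reads were divided.

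Of 16 other genes listed for NADPH supply, all were tested, and 3 rose and 1 fell (25% called, against 4.88% of all tested genes). Their median log2 difference was 0.038, with 13 of 16 above 0. Not all of the 16 form NADP or NADPH themselves, and Rpia and Rpe, for instance, do not. Mthfd2, a folate enzyme of mitochondria and a known ATF4 target, had 144.3, 148.0, 150.5, 150.9 and 146.8 CPM in DMSO and 158.6, 163.8, 160.4, 159.9 and 155.1 CPM in BPS. The groups did not overlap (log2 difference 0.11, SE 0.02, edgeR adjusted p = 0.00854). H6pd, which forms NADPH inside the endoplasmic reticulum, fell from 166.4 ± 1.40 to 155.0 ± 3.95 CPM (n = 5 each, SD), with a log2 difference of -0.10 (SE 0.02, edgeR adjusted p = 0.0101). Nadk, the cytosolic kinase that makes NADP, rose from 106.0 ± 1.58 to 112.4 ± 1.92 CPM, with a log2 difference of 0.084 (SE 0.018, edgeR adjusted p = 0.0202), and Idh2, a mitochondrial isocitrate dehydrogenase, from 148.0 ± 2.81 to 155.5 ± 2.41 CPM, 0.072 (SE 0.018, adjusted p = 0.0431). The calls of Mthfd2 and H6pd held in all 22 alternatives that give a fold change per gene. Where transcripts were tested without summing, the only list gene called lower was Nqo1, described below. The fall of H6pd was thus not called there. Idh2 lost its call in 17 of 22, among them each fit without any library other than BPS replicate 5 (edgeR adjusted p up to 0.1), no filter (0.0924), GC and length correction (0.0674), curated transcripts only (0.075) and library size alone (0.0957). Nadk lost its call in 7 of 22, among them the fits without DMSO replicate 4, BPS replicate 2 or BPS replicate 3 (edgeR adjusted p up to 0.0544), with curated transcripts only (0.349) and with exact version matching (0.789).

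Of the 10 glutathione transferases, enzymes that join glutathione to electrophiles, Gsto1 rose and Gstp1 fell. Their median log2 difference was 0.007, with 5 below and 5 above 0. Gsto1, of the omega class, which reduces dehydroascorbate and mixed disulfides and does less conjugation than the others, had the smallest p of the 35 genes. It had 257.7, 257.5, 246.1, 257.8 and 248.5 CPM in DMSO and 323.8, 284.3, 302.2, 298.2 and 285.5 CPM in BPS. All BPS libraries were above all DMSO libraries, and replicate 1 was the highest. The log2 difference was 0.24 (SE 0.03), a difference of 17.9%, at an edgeR adjusted p of 0.00208, and the call held in all 22 alternatives.

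Gstp1, of the pi class, had 231.5, 241.0, 232.2, 241.0 and 243.1 CPM in DMSO and 232.7, 223.5, 217.7, 219.1 and 216.4 CPM in BPS. BPS replicate 1 lay within the DMSO range and the other BPS libraries below it. The log2 difference was -0.099 (SE 0.023, edgeR adjusted p = 0.0317). The call was lost in 8 of the 22 alternatives, 7 of them the fits without DMSO replicate 2, 4 or 5 or BPS replicate 2, 3, 4 or 5 (edgeR adjusted p up to 0.0792). Gstp2, which is 98.65% identical to it over 54.2% of its length, had 9.52 CPM under DMSO and 10.3 CPM under BPS on average. Their sum, in which reads divided between the pair do not matter, was 247.3 ± 5.94 CPM under DMSO and 232.2 ± 6.68 CPM under BPS. It differed between the groups (exact two-sided permutation test, unadjusted p = 0.0238, where the smallest possible is 0.00794). Nearly all of the sum is Gstp1 itself, and it was taken after the values were seen, so it gives no separate support for the call.

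The alpha-class genes Gsta4 and Gsta3, whose enzymes detoxify products of lipid peroxidation, had the largest negative log2 differences of the 35 genes and few counts. Gsta4 had 1.52, 1.46, 1.496, 1.58 and 1.48 CPM in DMSO and 1.304, 0.948, 1.17, 1.35 and 1.08 CPM in BPS, on 33 to 60 counts per library. The groups did not overlap, but the difference, -0.36 (SE 0.11), missed the threshold (edgeR adjusted p = 0.0939). Gsta3 had 9 to 23 counts per library and a log2 difference of -0.53 (-0.525, SE 0.21, edgeR adjusted p = 0.202), with overlapping groups. Gstm5, of the mu class, did not overlap either, at 23.7 to 25.2 CPM in DMSO and 25.5 to 26.4 CPM in BPS, and did not pass (log2 difference 0.082, SE 0.025, edgeR adjusted p = 0.0907).

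The other 5 transferase genes (Gstm1, Gstm2, Gstt1, Mgst1 and Mgst3) had log2 differences between -0.039 and 0.12, none called. Gstm1 is 97.87% identical over 51.0% of its length to Gstm2-ps1, and Gstm2 88.32% identical over 58.7% to Gstm6, so part of their counts depends on how shared reads were divided. Of 15 further transferase genes 11 were tested and 0 were called by edgeR, DESeq2 or limma-voom. Of the 11, 4 had an unadjusted p under 0.05, against 18.8% of all tested genes. Their median log2 difference was 0.089, with 9 of 11 above 0.

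The last 5 genes concern export and the removal of carbonyls and epoxides, and 0 of them were called by edgeR, DESeq2 or limma-voom. Abcc1, an exporter of glutathione conjugates, had a log2 difference of 0.019 (SE 0.032), and Abcc4, an exporter of organic anions, -0.063 (SE 0.043). Ephx1, microsomal epoxide hydrolase, had 0.049 (SE 0.043) and Osgin1, a gene induced by oxidative stress, 0.068 (SE 0.068). Cbr1, a carbonyl reductase, was the 1 gene of the group with an unadjusted p under 0.05 (log2 difference -0.12, SE 0.04, edgeR adjusted p = 0.147).

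Nqo1, a quinone reductase that is the usual readout of NRF2 and is also a target of the aryl hydrocarbon receptor, is not one of the 35 genes. It had 32.3, 32.5, 28.9, 32.2 and 33.8 CPM in DMSO and 21.01, 15.1, 18.2, 17.3 and 16.4 CPM in BPS. Every BPS library lay below every DMSO library, and the log2 difference was -0.86 (SE 0.08, edgeR adjusted p = 7.5e-05). Of the 14 genes in its list of other NRF2 targets, 11 were tested and the other 10 did not pass, with a median log2 difference over the 11 of -0.069 and 9 of 11 below 0. Among the 35 genes the lowest log2 difference that passed the test was -0.26, in Gsr.

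**Figure D3:**
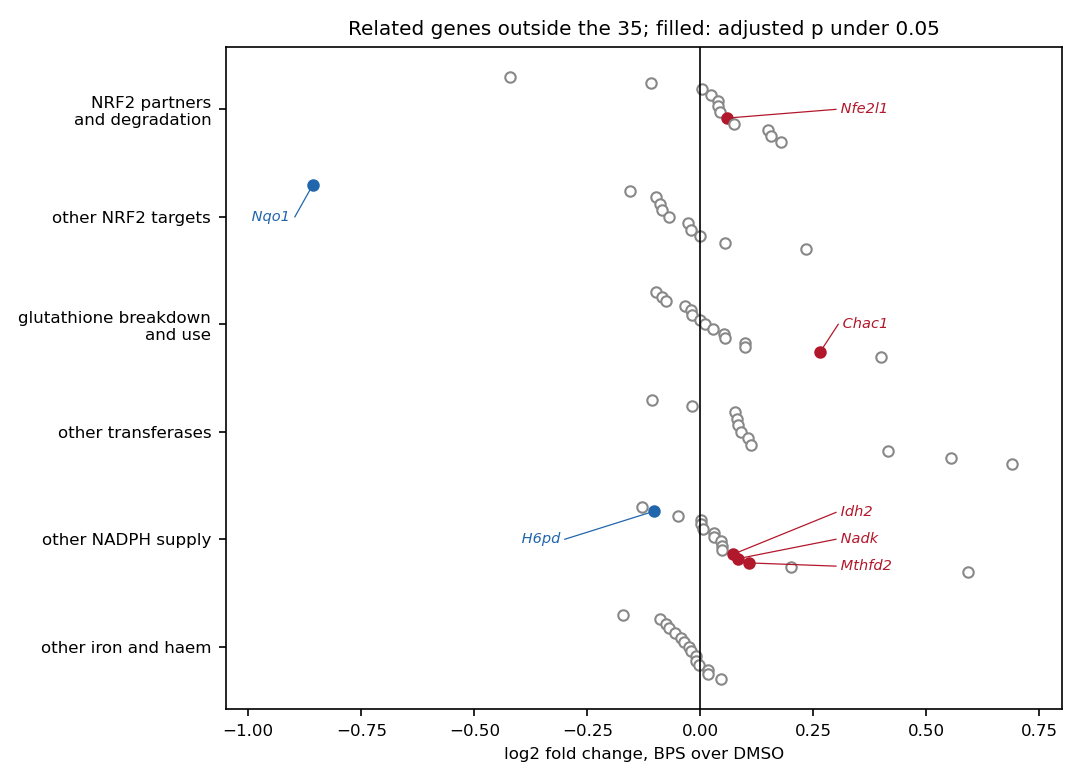
Log2 fold change of BPS over DMSO (x axis) for each tested gene of 6 lists of related genes (y axis), 1 point a gene. Filled points passed the test: Nqo1 stands at -0.86, and the other 6 lie between -0.10 and 0.26 (0.265).

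BPS replicate 1 came nearest to the DMSO mean of the 5 BPS libraries in 4 of the 7 called genes (Nfe2l2, Slc7a11, Fth1 and Gstp1). Over all 712 called genes it was the nearest in 27.2%, and the other BPS libraries in 14.5% to 24.7%. Without it 9 of the 35 genes were called by edgeR, 2 higher and 7 lower, the added ones being Gclc and Srxn1, and all 7 original calls held. Over all genes 774 were called without it, against 712. It was the BPS library nearest to DMSO in Gclc and Srxn1 too. Leaving out such a library widens the difference, so these added calls are no separate support. In fits that left out any other single library 5 or 6 genes were called.

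Of the 28 genes that did not pass, 24 had a 95% interval of the log2 difference that lay wholly between -0.25 and 0.25. The 4 others were Gsta3, Gsta4, Gstt1 and Mgst3, which had at most 191 counts in any library. The bound of 0.25 is wider than every called change except that of Gsr (-0.26). Lying within this bound therefore does not by itself exclude a change of the called sizes. Some single intervals were narrower than the smallest called change, -0.099 in Gstp1. Examples are Txn1 (-0.047 to 0.037), Hmox1 (-0.056 to 0.044) and Tkt (-0.029 to 0.063), while others, such as Pgd (-0.193 to 0.073), were not. Among the 24, the intervals of Gclc, Srxn1 and Cbr1 lay below 0 and that of Gstm5 above 0. Unadjusted p under 0.05 was found in 13 of the 35 genes and in 18.8% of all tested genes. Of the 6 that did not pass the adjustment, 5 were lower (Gclc, Srxn1, Gsta3, Gsta4 and Cbr1) and 1 was higher (Gstm5).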

How the data were processed

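The authors deposited estimated counts of 107384 RefSeq transcripts in 10 libraries. They came from kallisto 0.42.4, per the submitters' processing notes, which shares ambiguous reads out among similar transcripts. Index, build and strand setting are not given in the sources used here. Libraries were directional, per the labels' protocols. Accessions were matched without version to the RefSeq gene table of GRCm38.p6, for names only, giving 32903 genes from 86722 transcripts with 93.1% of counts. Sums per gene were rounded to whole numbers.

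Genes were filtered with filterByExpr (14597 kept), scaled by TMM (factors 0.9854 to 1.008) and tested with edgeR's quasi-likelihood test without covariates. A standard error is the unshrunken log2 fold change over the square root of F. Similar sequences were sought with BLASTN 2.17.0 among GENCODE transcripts, over at least 50% of the query. No library was a copy: chi-square divided by its degrees of freedom was 4.13 to 8.77 between replicates. The code was tested on simulated counts. The software was Python 3.11.15 with pandas 2.3.3 and R 4.3.3 with DESeq2 1.42.0, limma 3.58.1 and edgeR 4.0.16.

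Genes and lists were chosen with earlier results of these data known. Library values are given for called genes, for genes fixed by name and for up to 4 called genes of each list. Alternatives were other scalings, filters and tests, a replicate block, unsummed transcripts, exact version matching, curated transcripts only and leaving out each library. Removal of GC and length trends (94.9% of genes matched), and the sum of Gstp1 and Gstp2, were added after the data had been seen.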

Additional observations from a re-analysis of the deposited data

Results flagged for a closer look

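Dixon's criterion at the 95% level was applied to 88 groups of 5 values, for which chance gives about 4.4 libraries that stand apart, and 3 did. Hmox1 was low in DMSO replicate 3, at 81.5 CPM against 85.3 to 86.1 CPM in the other DMSO libraries. Cbr1 was high in DMSO replicate 4, at 24.51 CPM against 22.3 to 22.9 CPM. Slc3a2 was low in BPS replicate 1, at 252.7 CPM against 270.0 to 276.3 CPM in the other BPS libraries, and it passed the edgeR test without that library.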

How the results depend on the processing

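Of the 7 calls among the 35 genes, those of Nfe2l2, Gsr and Gsto1 held in all 22 alternatives that give a fold change per gene, those of Gclm and Fth1 in 21, that of Gstp1 in 14 and that of Slc7a11 in 9. All 7 kept their direction in each. With the replicate block 4 of the 35 genes were called (Fth1, Gstp1 and Slc7a11 were lost, with edgeR adjusted p of 0.0556, 0.0971 and 0.108, as were the list genes Nfe2l1, Idh2 and Nadk, with 0.102, 0.103 and 0.0559) and 374 of all genes, and adding GC and length correction to it gave 466 of all genes. Deviations of same-numbered libraries correlated at 0.109, 0.012, -0.073, 0.075 and -0.09, and 4 of 10 libraries correlated best with their own number. Pairing by replicate number was thus not evident, but these values cannot exclude it. Transcripts tested without summing gave 1 of the 35 genes (Gsto1), 2 list genes and 119 of all genes, with 37588 transcripts tested. Exact version matching gave 328 genes and curated transcripts 311, with 4 list genes each, while DESeq2 called 11 list genes and the original fit 7. Leaving out 1 library gave 449 to 774 of all genes, 5 to 9 of the 35 and 4 to 9 list genes. Over all genes the drop exceeded 1.5 times for 4 libraries: DMSO replicate 2 (449 genes without it) and BPS replicates 2 (462), 3 (465) and 4 (462). The list count did so without DMSO replicate 4, BPS replicate 2 or BPS replicate 3 (4 each).

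No called gene changed direction. Of the 28 uncalled members 8 did, with Me1 moving the most. Gss reached 0.00399 with upper-quartile factors and 1.92e-06 with limma-voom, and Gstm2 0.00179 with upper-quartile factors. Ftl1 reached -0.000737 with library size alone, -0.00601 after GC and length correction and -0.00614 when the block was added, where Gstm1 reached -0.000347. Me1 reached 0.0944 with curated transcripts. Abcc1 reached -0.0131 with exact versions and -0.0155 with curated transcripts. Leaving out single libraries gave -0.0247 to 0.0308 for Gss, -0.0201 to 0.0132 for Gstm2, -0.02 to 0.00618 for Txn1, -0.0201 to 0.00742 for Hmox1, -0.00284 to 0.026 for Ftl1, -0.0169 to 0.00379 for Me1, -0.00944 to 0.0502 for Gstm1 and -0.00715 to 0.0317 for Abcc1. The cause was not tested. Depth limits Gsta3, with 9 to 23 counts per library.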

Other observations

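Several of the genes are split over transcripts whose reads overlap, and the estimates per transcript of 2 genes are set here beside their sums. For Txnrd1, 1 curated transcript averaged 91.4 CPM (SD 13.7) under DMSO and 72.4 CPM (SD 14.1) under BPS, with a log2 difference of -0.34 (SE 0.15). Another averaged 143.9 CPM (SD 21.5) and 154.7 CPM (SD 15.4), with a log2 difference of 0.105 (SE 0.11). Their edgeR adjusted p over 37588 transcripts were 0.714 and 1. The summed gene had SDs of 10.4 and 6.39 CPM. Gclc was split between a curated transcript, with 18.99 CPM (SD 3.31) under DMSO and 16.4 CPM (SD 3.87) under BPS, and a predicted one, with 22.1 CPM (SD 3.27) and 20.9 CPM (SD 1.997). The summed gene had SDs of 0.548 and 2.68 CPM, the first below and the second between the SDs of its transcripts. Gsto1 has a single transcript in the table and was the 1 gene of the 35 with a called transcript (log2 difference 0.24, SE 0.04, edgeR adjusted p = 0.0264).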
